A study of Mus musculus with 4 samples.

Results

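Cycling CT26-like carcinoma cells were 1544 of the 10295 tumour base cells described here, out of 42163 cell barcodes in the 4 libraries of the study. CT26 is a mouse colon carcinoma line that grows as a tumour under the skin of immunocompetent mice. Base cells were tumour barcodes with at least 200 genes, at most 10% of UMIs from mitochondrial genes, at least 5000 UMIs, 0 UMIs of Ptprc and at least 2 UMIs of Rhox5. A UMI is a unique molecular identifier, which counts 1 captured transcript. Ptprc encodes CD45, the common antigen of leukocytes, and Rhox5 is a homeobox gene that many mouse tumour lines express. Each base cell was scored by its summed UMIs of Top2a, Ube2c, Cdc20, Birc5, Aurkb and Pbk, divided by its total UMIs. The 15% of base cells with the highest score, pooled over both tumour libraries, were called cycling cells, and the remaining 8751 are called other base cells. Because the cycling cells were chosen by these measured counts, every contrast with other base cells is a description and no test of it was made.

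The study set CT26 tumours and tumour-draining lymph nodes with NanoCa against mock, with 1 library per group and so no replicate. NanoCa is, by the series title, a calcium-crystal lipid nanoparticle for interferon-beta-mediated immunotherapy. The labels give female mice 4 to 8 weeks old in all groups, NanoCa in the tumour NanoCa library and no treatment in the tumour mock library, but they name NanoCa for every library in a protocol field, and this conflict could not be settled. No label used here gives the number of mice behind a library, the dose, the time of harvest or the gate of the sort. Cells were stained for CD45 and sorted before 10x Genomics library preparation. The labels call the tumour samples infiltrating immune cells, while the cells described here had no Ptprc UMI by their rule.

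A dividing cell copies its DNA in S phase, prepares in G2 and separates its chromosomes in mitosis. Transcripts of replication genes peak around the start of S phase under E2F factors, and transcripts of mitotic genes peak in G2 and mitosis. The 6 scored genes act late in this order. Top2a (ENSMUSG00000020914) untangles DNA before chromosomes part. Ube2c (ENSMUSG00000001403) and Cdc20 (ENSMUSG00000006398) work with the anaphase-promoting complex, the ubiquitin ligase that starts chromosome separation. Birc5 (survivin, ENSMUSG00000017716) and Aurkb (Aurora B kinase, ENSMUSG00000020897) belong to the chromosomal passenger complex, and Pbk (ENSMUSG00000022033) is a mitotic kinase.

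Promoters of late cell cycle genes often carry CCAAT boxes, bound by NF-Y, and the element TTTGAA, the cell cycle genes homology region read by MuvB complexes. Promoters of replication genes often carry E2F sites such as GCGGGAA. The 150 bases before the RefSeq start site (GRCm38.p6) are shown for the 4 scored genes that have an entry, as the sequences before the genes that define the class. They are written 5′ to 3′ on the gene's strand, and capitals mark CCAAT or TTTGAA on either strand, so that ATTGG and TTCAAA are reverse-strand matches. The windows are chr11:99024190-99024339 on the minus strand for Top2a, chr2:164769779-164769928 on the plus strand for Ube2c, chr4:118437344-118437493 on the minus strand for Cdc20 and chr11:117849087-117849236 on the plus strand for Birc5. Aurkb and Pbk are named only.
Top2a: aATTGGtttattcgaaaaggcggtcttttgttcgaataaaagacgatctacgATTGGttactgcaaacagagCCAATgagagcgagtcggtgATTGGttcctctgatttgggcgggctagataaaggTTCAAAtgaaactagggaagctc
Ube2c: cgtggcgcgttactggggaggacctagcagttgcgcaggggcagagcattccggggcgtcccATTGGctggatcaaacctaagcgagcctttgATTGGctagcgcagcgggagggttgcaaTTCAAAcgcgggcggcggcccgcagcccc
Cdc20: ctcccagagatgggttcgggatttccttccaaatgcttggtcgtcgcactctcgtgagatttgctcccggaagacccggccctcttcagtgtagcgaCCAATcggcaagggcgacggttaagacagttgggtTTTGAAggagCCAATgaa
Birc5: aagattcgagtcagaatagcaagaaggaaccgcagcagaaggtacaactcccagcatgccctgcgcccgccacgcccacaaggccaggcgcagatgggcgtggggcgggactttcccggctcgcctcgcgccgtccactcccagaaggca

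CCAAT stood in 3 of these 4 windows, with 4 matches before Top2a, 2 before Ube2c and 2 before Cdc20. TTTGAA stood once in each of the same 3 windows, and GCGGGAA in none of the 4. The Birc5 window held none of the 3 motifs, which says only that these letters are not in it. Among all 32851 windows of this length in the table, 24.5% held CCAAT, 9.07% TTTGAA and 2.59% GCGGGAA. Counted by gene, TTTGAA stood before 22.9% of the 83 matched genes of 5 mitosis lists, 7.32% of the 41 matched genes of 2 replication lists and 10.5% of all 27025 genes. GCGGGAA had the other order, at 6.02% of the mitosis genes, 24.4% of the replication genes and 3.03% of all genes. CCAAT was frequent in both kinds, at 59.0% of the mitosis genes and 53.7% of the replication genes against 27.7% of all genes. The motifs do not overlap in letters, and a match is a description of sequence, not a bound site.

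The tumour libraries held 11287 barcodes with 167924801 UMIs (NanoCa) and 9404 barcodes with 148121144 UMIs (mock). Base cells were 5724 and 4571 of these barcodes. The tumour libraries shared 136 barcode sequences, within the 121 to 183 shared by any pair of the 4 libraries, and 1 of these was a cycling cell in both. Cycling cells were deeper than other base cells, with a median of 28964 UMIs against 21572 in NanoCa and 34502 against 24022 in mock. Their median gene number was 4749 against 4080 in NanoCa and 5011 against 4147 in mock. After each cell was thinned to 5000 UMIs the medians were 1761 against 1756 genes in NanoCa and 1726 against 1692 in mock, so that gene numbers were close at equal depth. The median mitochondrial share was 1.19% in NanoCa and 1.48% in mock cycling cells, and 1.33% and 1.63% in other base cells.

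**Figure D1:**
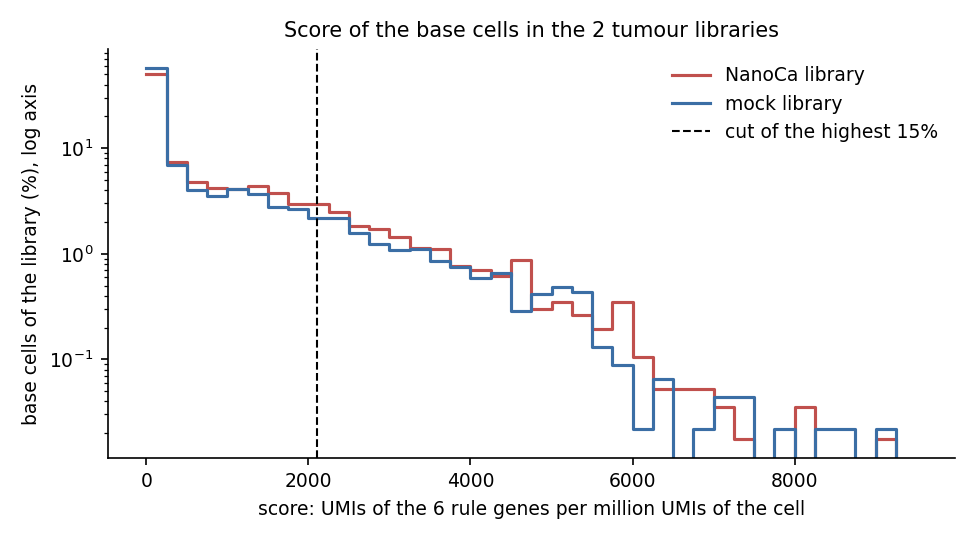
Distribution of the score in base cells, as CPM of the 6 scored genes in the cell (x axis), with the percent of each tumour library's base cells per bin on a log axis (y axis). The dashed line marks the cut of the highest 15%; neither library's distribution shows a gap there.

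The score, given in counts-per-million units (CPM), had no gap at its cut. The last cell inside had a score of 2099.98 CPM (108 of 51429 UMIs), and the first outside had 2098.54 (23 of 10960 UMIs). Within 10% of the cut lay 211 cycling cells and 224 others, and within 25% lay 494 and 646. The class is therefore a range of a graded score, not a separate type. Its median score was 3055 CPM in NanoCa and 3116 in mock, against 135 and 103 in other base cells. Base cells with no UMI of any of the 6 genes were 16.4% of the NanoCa and 17.8% of the mock base cells.

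The score was mostly Ube2c, which gave 57.6% of its UMIs in NanoCa and 57.3% in mock cycling cells. Every cycling cell had a Ube2c UMI. The share of cycling cells with a UMI was 98.4% and 99.0% for Top2a, 95.8% and 97.9% for Cdc20, 99.7% and 100% for Birc5, 95.5% and 96.5% for Aurkb, and 94.5% and 96.4% for Pbk (NanoCa and mock). Levels below are CPM of the UMIs summed over the cells of a group. Ube2c stood at 1938 CPM in cycling cells against 183 in other base cells in NanoCa, and at 1950 against 151 in mock. Top2a stood at 313 against 76.8 in NanoCa and 365 against 80.0 in mock. Per cell the range was wide: from the 10th to the 90th percentile Cdc20 ran from 62.2 to 653 CPM in NanoCa and from 75.2 to 670 in mock.

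The name was checked against markers. Krt18, a keratin of simple epithelia, stood at 46.2 CPM in NanoCa and 30.7 in mock cycling cells, and 4.36 and 2.92 in a reference of 859 and 986 immune barcodes (at least 2 Ptprc UMIs, no Rhox5). Krt20, an intestinal keratin, stood at 48.3 and 35.5 CPM against 6.20 and 4.99 in that reference. Krt8, the usual partner of Krt18, had a UMI in 4.38% of NanoCa and 1.98% of mock cycling cells. Epcam had 1 UMI in all cycling cells together and Cldn4 and Cldn7 had 0, so the usual epithelial surface markers were absent or nearly so. Beside Rhox5, which the rule required, the carcinoma name rests on Krt18, Krt20 and Cldn6, a claudin (20.1 and 17.4 CPM). The carcinoma identity list held 13 genes. Only 5 of them, Rhox5, Krt8, Krt18, Krt20 and Cldn6, had enough UMIs for the gene counts below. Of the 13 genes, 3 had 0 UMIs in cycling cells, so the name rests on a minority of the list. Cdkn2a, an inhibitor of Cdk4 and Cdk6 reported as deleted in the CT26 line, had 3 UMIs in NanoCa and 0 in mock cycling cells, and stood at 4.59 and 9.63 CPM in the immune reference.

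Most marker lists of other cell types were low in cycling cells. Summed marker levels in cycling cells, NanoCa then mock, were 3.35 and 3.17 CPM for 8 T cell genes, 1.31 and 1.73 for 5 NK genes and 3.17 and 4.42 for 5 B cell genes. The immune reference held 654 and 964, 1051 and 1444, and 277 and 188 CPM of the same lists. The 8 macrophage genes summed to 102 and 42.5 CPM, against 15782 and 12960 in the reference. Of the 1178 Lyz2 UMIs of NanoCa cycling cells, 27.1% were in 1 cell. Of the 6 dendritic cell genes, Fscn1, an actin-bundling protein, gave 122 and 109 CPM, above its 23.9 and 34.4 in the reference. The general immune list, which holds Ptprc and so was partly set by the rule, summed to 24.7 and 17.1 CPM. The median over cells was 0 for the T, NK, B, neutrophil and endothelial lists. The 8 fibroblast genes summed to 157 and 108 CPM in cycling cells and 278 and 248 in other base cells. The immune reference held 181 and 159 CPM of them, a smaller gap than for the T, NK, B and macrophage lists. Barcodes with the highest scores of Scrublet, a doublet caller, were marked up to a number preset from the library's barcode count. That number was 1006 in NanoCa and 689 in mock, so the total marked is no measure of doublets. Marked were 5.23% and 5.27% of cycling cells and 9.09% and 7.09% of other base cells, and these were kept.

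Genes of mitosis that the score did not use were far higher in cycling cells than in other base cells of both libraries. A gene was counted as higher or lower where it differed at least 1.5-fold in both libraries with at least 100 UMIs over the 2 groups in each. Over 11351 genes, 473 (4.17%) were higher and 431 (3.8%) lower by this count, and the rule itself used this contrast. All 17 mitotic kinase and spindle checkpoint genes were higher, with a median log2 ratio of 1.65 in NanoCa and 1.83 in mock. So were 12 of 15 mitotic cyclin and Cdk1 genes, 26 of 27 kinetochore genes, 24 of 25 spindle and kinesin genes and 13 of 14 cytokinesis genes, and none of these was lower. Over all genes the median was -0.09 in NanoCa and -0.05 in mock.

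Ccnb1, the cyclin that drives entry into mitosis, stood at 197 CPM (95% exact counting interval 192 to 202) in NanoCa cycling cells and 25.8 in other base cells. In mock it stood at 208 CPM (202 to 214) and 24.2. The log2 ratios were 2.93 and 3.10. Intervals here and below cover counting error only. Its partner kinase Cdk1 was at 374 CPM in NanoCa and 349 in mock cycling cells, with log2 ratios of 2.05 and 2.18. Plk1, the Polo kinase of mitosis, was at 124 against 15.8 CPM in NanoCa and 122 against 13.6 in mock, and had a UMI in 88.0% and 90.3% of cycling cells. These 3 genes thus differed in the same direction and by a like amount in both libraries. Aurka, the centrosomal Aurora kinase, was at 131 against 16.9 CPM in NanoCa and 126 against 14.7 in mock.

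At the kinetochore, Cenpf stood at 348 against 46.3 CPM in NanoCa and 415 against 44.7 in mock. Cenpa, the histone H3 variant of centromeres, was at 378 against 93.0 CPM in NanoCa and 397 against 77.0 in mock. Among spindle genes the log2 ratios were 2.62 and 2.87 for Aspm, a spindle pole protein, and 2.43 and 2.73 for Kif2c, a microtubule-depolymerising kinesin (NanoCa and mock). Among cytokinesis genes, Prc1, which bundles microtubules at the midzone, stood at 238 against 42.5 CPM in NanoCa and 290 against 42.4 in mock. Of 20 condensin, cohesin and chromatin genes 15 were higher, among them H2ax (1.92 and 1.90), the condensin subunit Ncaph (1.74 and 1.85) and Mki67, the gene of the Ki-67 antigen (1.62 and 1.77).

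The subunits and the regulators of the anaphase-promoting complex stood apart. Of the 18 genes of that list 6 were higher: the securin gene Pttg1 (log2 2.05 in NanoCa and 2.27 in mock), the separase gene Espl1 (1.93 and 2.27), the activator Fzr1 (1.80 and 1.82), the inhibitor Fbxo5 (1.59 and 1.71), the subunit Cdc23 (0.78 and 1.05) and the ubiquitin-conjugating enzyme Ube2s (1.15 in NanoCa). The other 12 genes, all subunits, ran from -0.12 to 0.51 in log2. Of 11 nuclear envelope genes 6 were higher, led by the lamin gene Lmnb1 (1.30 and 1.42).

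**Figure D2:**
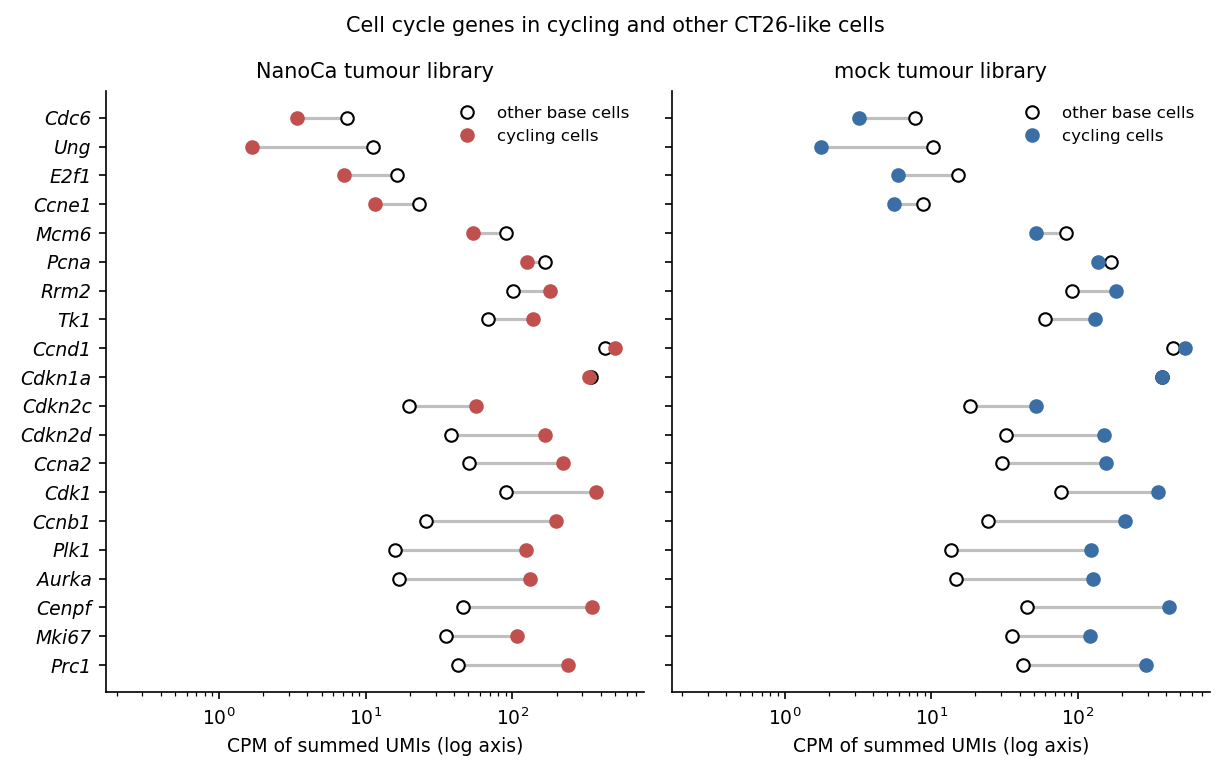
CPM of summed UMIs on a log axis for 20 cell cycle genes in cycling cells (filled) and other base cells (open), in the NanoCa tumour library (left) and the mock tumour library (right). The upper 6 genes, Cdc6 to Pcna, are lower in cycling cells and the lower 10, Cdkn2c to Prc1, are higher, in both libraries.

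Most replication genes were counted in neither direction. Of 19 origin licensing and helicase genes 1 was higher and 2 lower, where 4.17% of all genes were higher and 3.8% lower. Cdc6, a loader of the replicative helicase, stood at 3.39 against 7.44 CPM in NanoCa and 3.22 against 7.69 in mock. The helicase subunit Mcm6 stood at 53.6 against 90.7 CPM in NanoCa and 51.9 against 82.4 in mock. The higher gene was Dbf4, the activator of the Cdc7 kinase, at 152 against 49.8 CPM in NanoCa and 134 against 39.8 in mock. Pcna, the sliding clamp of DNA polymerases, was at 125 against 167 CPM in NanoCa and 138 against 168 in mock, short of 1.5-fold.

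Of 31 DNA synthesis and nucleotide genes 4 were higher, a larger share than the 4.17% of all genes, and 1 was lower. The higher ones were Tk1, thymidine kinase (log2 1.02 in NanoCa and 1.12 in mock), Rrm2 (0.84 and 1.00) and Rrm1 (0.75 and 0.88), the subunits of ribonucleotide reductase, and Rfc5 (0.73 and 0.78), a subunit of the clamp loader. The lower one was Chaf1b (-1.15 and -1.15), a subunit of the chromatin assembly factor. Ung, which removes uracil from DNA, had the lowest ratio of the 19 homologous recombination and repair genes, at 1.67 against 11.3 CPM in NanoCa and 1.78 against 10.2 in mock (log2 -2.75, interval -3.21 to -2.33, and -2.52, interval -3.04 to -2.05). In the same list 5 genes were higher, among them Eme1, a subunit of a structure-specific nuclease (9.94 against 3.90 CPM in NanoCa and 9.70 against 3.44 in mock), and Fancd2 of the Fanconi anaemia pathway (9.90 against 4.47 and 9.80 against 4.81). As whole lists the replication genes were close to or above the other base cells. The licensing genes summed to 771 against 791 CPM in NanoCa and 763 against 727 in mock, and the DNA synthesis genes to 2104 against 1900 and 2093 against 1771. The median over cells was higher in cycling cells, at 743 against 510 CPM in NanoCa and 725 against 404 in mock for licensing genes, and at 1997 against 1196 and 1967 against 1012 for DNA synthesis genes. Other base cells ran wider, with a 90th percentile of 1706 CPM of licensing genes in NanoCa and 1588 in mock, against 1204 and 1213 in cycling cells.

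Regulators of the G1 to S step were mixed. Of 15 genes 2 were lower, E2f1 (log2 -1.20 in NanoCa and -1.36 in mock) and the cyclin gene Ccne1 (-1.01 and -0.66). The repressors E2f7 (log2 0.64 and 0.85) and E2f8 (0.79 and 0.97) were the 2 higher. Ccnd1, cyclin D1, stood at 500 against 427 CPM in NanoCa and 539 against 447 in mock. Among 13 measured genes of Cdk inhibition and quiescence, Cdkn2d (p19) stood at 166 against 37.9 CPM in NanoCa and 151 against 32.4 in mock, and Cdkn2c (p18) at 56.6 against 19.7 and 51.7 against 18.3. Cdkn1a (p21), the p53 target, did not stand apart, at 335 against 345 CPM in NanoCa and 371 against 373 in mock. Of the mock Cdkn1a UMIs of cycling cells, 6.80% were in 1 cell.

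Along the score, replication genes peaked below the cut. Base cells of both libraries were ordered by score and divided at the 50th, 70th, 85th and 95th percentiles, the last 2 divisions being cycling cells. The 19 licensing genes summed to 480 CPM in the lowest range, 1121 and 1056 in the next ranges, and 823 and 662 in cycling cells. The 31 DNA synthesis genes summed to 1087, 2522, 2933, 2304 and 1705 CPM over the same ranges. The 27 kinetochore genes, not scored, summed to 176, 843, 1587, 2069 and 2844 CPM, and the 25 spindle genes to 1851, 3506, 6588, 8331 and 10079. Mcm6 was highest from the 50th to the 70th percentile (130 CPM, against 37.3 in the highest 5%) and Pcna from the 70th to the 85th (252 against 86.6). Cenpf was highest in the highest 5%, at 565 CPM against 8.04 in the lowest range. The highest levels of S phase genes were thus among other base cells, and cycling cells held the highest levels of the late genes.

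**Figure D3:**
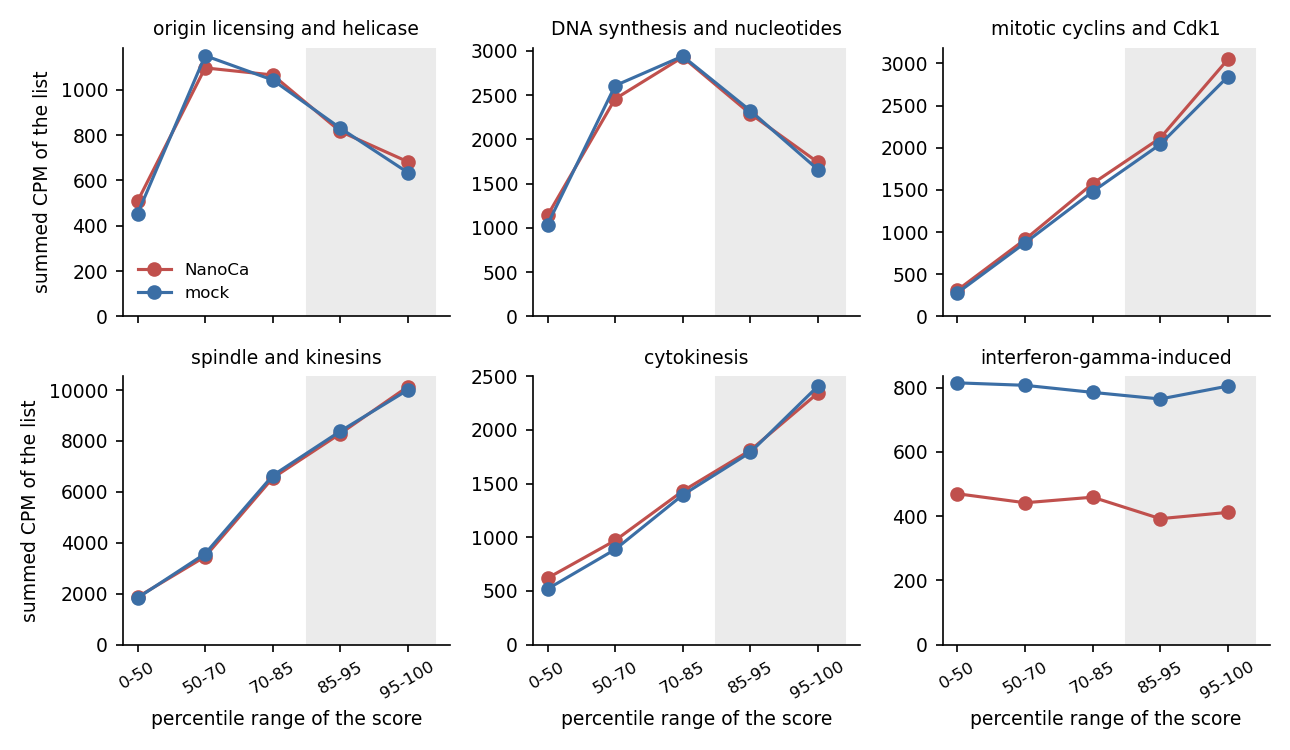
Summed CPM of 6 gene lists (y axes from 0) in base cells divided by percentile of the score (x axis), for the NanoCa and mock tumour libraries; the shaded ranges are cycling cells. Licensing and DNA synthesis genes are highest below the shaded ranges, mitotic, spindle and cytokinesis genes are highest in the highest 5%, and interferon-gamma-induced genes keep a gap between libraries in every range.

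Outside the cell cycle lists, the 10 genes highest in cycling cells were Sapcd2, Fam83d, Troap, Tnfaip8l1, Kpna2, Pimreg, Cdkn3, Miip, Mxd3 and Reep4. Fam83d, a spindle protein, stood at 89.2 against 9.27 CPM in NanoCa and 79.0 against 9.75 in mock. Sapcd2, a regulator of spindle orientation, stood at 71.3 against 8.73 CPM in NanoCa and 69.1 against 7.38 in mock. Calm2, 1 of the 3 calmodulin genes, stood at 682 against 355 CPM in NanoCa and 705 against 367 in mock. It was the only one of 26 measured calcium-handling genes counted as higher, where 4.17% of all genes were. The list's median log2 ratios were -0.18 and -0.12, so this count is no result about the list.

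The 10 genes outside the cell cycle lists that were lowest in cycling cells were Ogn, Lcn2, Cebpd, Hmox1, Col3a1, C1ra, Ccl7, Ndrg1, Dcn and Fcgrt. Ogn, a small leucine-rich proteoglycan, stood at 8.67 against 43.0 CPM in NanoCa and 11.1 against 72.2 in mock. Lcn2, an iron-siderophore-binding secreted protein, stood at 6.19 against 24.4 CPM in NanoCa and 11.6 against 75.2 in mock, and had a UMI in 3.95% and 6.75% of cycling cells. Ndrg1, a hypoxia-responsive gene, stood at 109 against 192 CPM in NanoCa and 117 against 234 in mock. All 8 fibroblast marker genes were lower in cycling cells, as were 9 of 21 matrix and mesenchymal genes and 5 of 21 glycolysis and hypoxia genes, and no gene of these 3 lists was counted as higher. The summed matrix and mesenchymal list went the other way, at 12109 against 10571 CPM in NanoCa and 11858 against 10340 in mock. Most of that sum was Vim, the intermediate filament vimentin, with log2 ratios of 0.35 and 0.33, singled out after its values were seen. Whether host fibroblast RNA had a part in these values was not tested. None of 22 MHC class I genes and 1 of 23 interferon-gamma-induced genes differed by the count.

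Cycling cells were a larger share of base cells in the NanoCa than in the mock library, 937 of 5724 (16.4%, exact binomial 95% interval 15.4 to 17.4) against 607 of 4571 (13.3%, 12.3 to 14.3). The log2 ratio of the shares was 0.30 (0.15 to 0.45). After thinning to 5000 UMIs and a cut of 11 UMIs of the scored genes, the shares were 16.5% and 13.5%, and 86.5% of the cycling cells were above that cut. The difference varied with the genes that were scored. With 6 other genes of mitosis (Ccnb1, Cenpf, Plk1, Kif11, Tpx2 and Nusap1) the highest 15% made up 15.1% of NanoCa and 14.9% of mock base cells, and 74.9% of these cells were cycling cells by the main score. Leaving Ube2c out of the score gave 15.9% and 13.9%, and leaving out any other single gene gave 16.2 to 16.5% against 13.1 to 13.5%, alternatives chosen after seeing the data.

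Over all base cells, without any cut, the 6 scored genes summed to 1110 CPM in NanoCa and 981 in mock (log2 0.18). The 6 other genes of mitosis summed to 368 and 360 CPM (log2 0.03). Among the scored genes the log2 ratio was 0.26 for Birc5, 0.21 for Ube2c, 0.20 for Pbk, 0.19 for Cdc20, 0.14 for Aurkb and -0.06 for Top2a. Among the others it was 0.21 for Plk1, 0.003 for Kif11, 0.10 for Ccnb1, 0.04 for Tpx2, -0.03 for Cenpf and -0.05 for Nusap1. Whole lists without the scored genes ran from -0.03 for Cdk inhibition and quiescence and -0.02 for the G1 to S step to 0.22 for mitotic cyclins. In between were 0.004 for the nuclear envelope, 0.03 for condensin, cohesin and chromatin and 0.03 for repair. Kinetochore genes had 0.06, mitotic kinases 0.07, DNA synthesis 0.09, licensing 0.10 and spindle genes 0.10. Cytokinesis had 0.17 and the anaphase-promoting complex 0.19. Some unscored lists thus differed by about as much as the scored sum, and others by less or in the other direction. With 1 library per group, treatment and library cannot be told apart.

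The share of cycling cells also went with depth. It was 6.01% (4.70 to 7.56) in NanoCa and 3.40% (2.27 to 4.88) in mock base cells of 5000 to under 15000 UMIs, and 8.65% and 4.99% from there to under 25000. From 25000 to under 35000 UMIs it was 26.3% and 14.6%. At 35000 or more it was 37.4% (33.6 to 41.3) and 35.8% (32.5 to 39.2). The intervals overlapped in the lowest and the highest class. The part of cell size in the share was not tested.

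**Figure D4:**
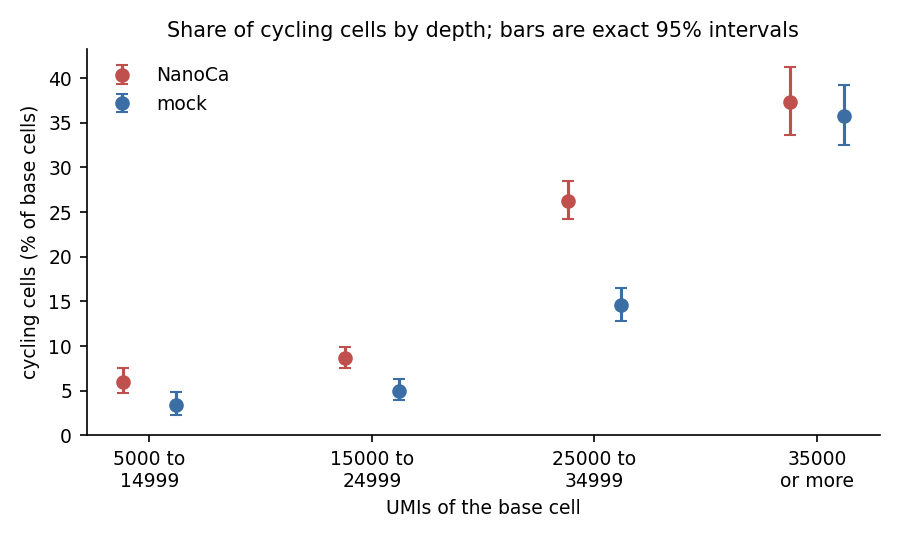
Percent of base cells that were cycling cells (y axis from 0) by the cell's total UMIs (x axis) in the NanoCa and mock tumour libraries; bars are exact binomial 95% intervals and cover counting error only. The share is higher in each deeper class of both libraries, and the intervals of the libraries are apart from 15000 to under 35000 UMIs but overlap in the lowest and the highest class.

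Between treatments, genes induced by interferon gamma were lower in the cycling cells of NanoCa. A gene was counted at 1.5-fold with at least 100 UMIs over both libraries. Over 10145 genes in cycling cells 617 (6.08%) were higher in NanoCa and 160 (1.58%) lower, with a median log2 ratio of 0.01. Of the 21 measured genes of that list 19 stood lower and 1 stood higher, and the list's median log2 ratio was -0.98. In other base cells it was -1.03, with 19 of 24 counted as lower and 1 as higher, where 901 of 12268 genes (7.34%) were higher and 252 (2.05%) lower.

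Gbp2, a guanylate-binding GTPase, stood at 61.4 CPM (58.5 to 64.4) in NanoCa and 168 (162 to 174) in mock cycling cells, a log2 ratio of -1.45, against -1.40 in other base cells. It had a UMI in 36.3% of NanoCa and 62.4% of mock cycling cells. In the immune reference Gbp2 stood at 151 and 177 CPM. The interferon-inducible GTPase Iigp1 stood at 8.37 against 27.7 CPM (log2 -1.73). The transcription factor Irf1 stood at 49.1 against 91.2 CPM (-0.89). The higher gene was Socs1, the feedback inhibitor of the pathway, at 45.7 against 25.6 CPM (0.84), named because it was the only one; in the immune reference it was at 56.1 and 28.2 CPM. The per-cell sum of the 25 genes of the list had a median of 189 CPM in NanoCa and 310 in mock, and a 90th percentile of 907 and 2048, so that the upper tail differed more than the middle.

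Antigen presentation genes differed less. Of 22 MHC class I and peptide-loading genes 8 were lower in NanoCa cycling cells, with a median log2 ratio of -0.45, and 3 of 22 in other base cells, with a median of -0.39. Psmb9, an immunoproteasome subunit, stood at 74.9 against 156 CPM (-1.06). The class I heavy chains H2-K1 and H2-D1 had log2 ratios of -0.40 and -0.37, and the light chain B2m -0.47, short of the count. Of 37 other interferon-stimulated genes 7 were lower, led by Zbp1 (-0.93), a sensor of left-handed nucleic acid, and Ifih1 (-0.87), a sensor of double-stranded RNA. Ifnb1, the gene of interferon beta, had 0 UMIs in NanoCa and 2 in mock cycling cells, so no difference was detectable there at this depth. In other base cells it stood at 0.388 CPM in NanoCa and 0.0627 in mock, with a counting interval of the log2 ratio from 1.38 to 4.16. The NanoCa level rested on 41 UMIs in 7 cells, 23 of them (56.1%) in 1 cell, and the mock level on 6 UMIs in 6 cells.

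**Figure D5:**
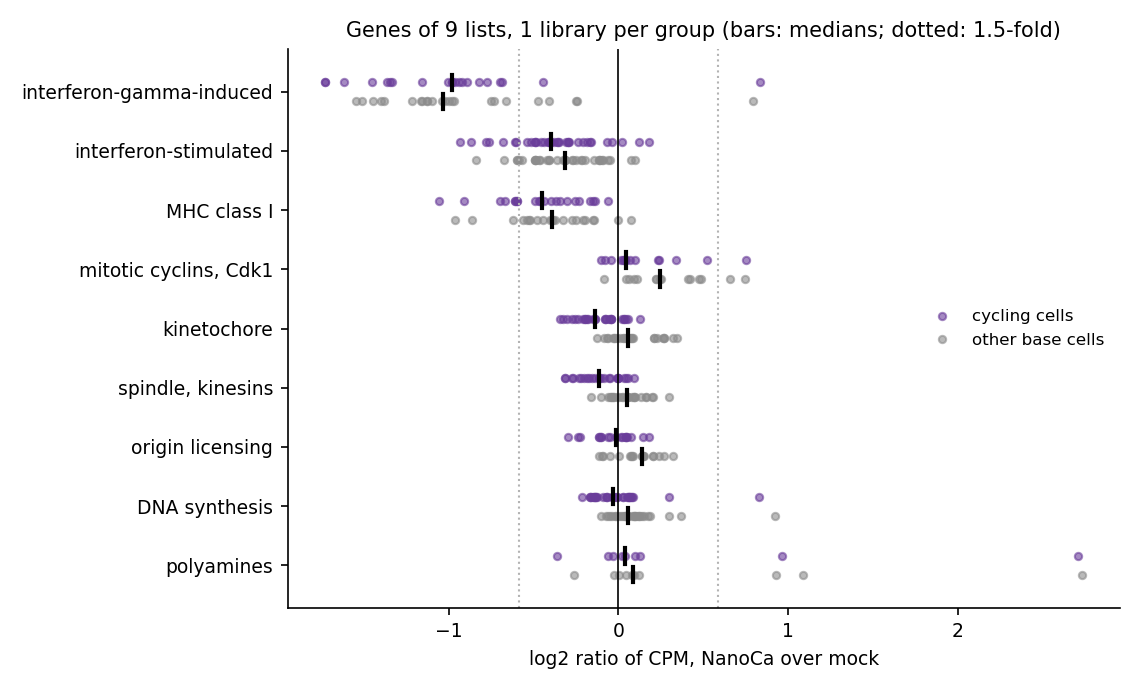
Log2 ratio of CPM, NanoCa over mock (x axis), for the genes of 9 lists in cycling cells (upper row of each pair) and other base cells (lower row); each point is a gene, bars are medians and dotted lines mark 1.5-fold. Interferon-gamma-induced genes centre at -0.98 and -1.03, while replication and mitosis genes lie near 0.

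Most cell cycle genes were close in level between the libraries' cycling cells, which were chosen above 1 common score of mitotic genes. No gene of the kinetochore, spindle, mitotic kinase, cytokinesis or licensing lists passed 1.5-fold, with list medians of -0.14, -0.11, -0.05, -0.11 and -0.02. The scored genes ran from -0.22 (Top2a) to 0.09 (Birc5). Because of the common cut, closeness of the scored genes, and of mitotic genes that go with them, is no independent result. Genes of the cell cycle and repair lists with larger ratios included Ccna2, cyclin A2, at 222 against 155 CPM (log2 0.52), the anaphase-promoting complex activator Fzr1 at 72.3 against 43.5 (0.73), the Cdk1-inhibiting kinase Wee1 at 18.1 against 10.8 (0.75), Ccne1 at 11.5 against 5.57 (1.05) and Chaf1a, the partner of Chaf1b, at 21.7 against 12.2 (0.83). In other base cells the same genes had log2 ratios of 0.75, 0.76, 0.42, 1.39 and 0.93. Tmpo, a protein of the inner nuclear membrane, stood at 240 against 160 CPM (0.58), just short of the count. The repair gene Xrcc2 was counted as lower, at 1.97 against 3.07 CPM (-0.64, interval -1.19 to -0.10), on 54 and 64 UMIs.

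The 10 genes ranked highest in NanoCa, outside the cell cycle lists, had like ratios in cycling and other base cells. Glrx5, of iron-sulfur cluster assembly, stood at 67.1 against 6.82 CPM (log2 3.30) in cycling cells, 3.28 in other base cells, and at 46.2 against 7.74 CPM in the immune reference. Srm, spermidine synthase, stood at 407 against 62.1 CPM (2.71), 2.73 in other base cells, and 111 against 24.6 CPM in the reference. Odc1, the rate-limiting enzyme of polyamine synthesis, stood at 178 against 91.0 CPM (0.97). Srm and Odc1 were the only 2 of 9 measured polyamine genes counted as higher. The median log2 ratio of that list was 0.04, and Sms of the same list had -0.36. Beside Glrx5 and Srm, the other 8 of the 10 highest were Pcbd2, Bri3, Rab5if, Dnttip1, Iscu, Taf10, Rab24 and Rnf187. Their log2 ratios ran from 2.23 to 2.59. Orai1, the pore of store-operated calcium entry, stood at 31.1 against 7.69 CPM (2.02), with 91.9 against 28.4 in the reference. Micu2, a gatekeeper of mitochondrial calcium uptake, stood at 12.8 against 3.41 (1.91). Orai1 and Micu2 were the only 2 of 26 measured calcium-handling genes counted as higher, where 6.08% of all genes were. The median log2 ratio of that list was 0.01, so the list as a whole did not differ. In the immune reference Glrx5, Srm and Orai1 were also higher in NanoCa, at other levels, and whether these ratios belong to treatment or library cannot be told apart. Of 5 measured carcinoma identity genes 2 were higher in NanoCa cycling cells, Krt8 (log2 2.27) and Krt18 (0.59). The Krt8 ratio rested on 420 UMIs in NanoCa and 66 in mock, in the small share of cycling cells given with the markers above. All 3 genes of a list of a carcinoma state were higher, Afp, alpha-fetoprotein (1.14), Clu (0.88) and Glod5 (0.83), a list drawn from earlier results of these data and so no independent evidence. Of 18 measured matrix and mesenchymal genes 6 were higher (median log2 ratio 0.21), 1 of them Acta2 through a single cell described below. Of 20 glycolysis and hypoxia genes 2 were lower (Car9, a carbonic anhydrase, -1.04, and Bnip3, a mitophagy receptor, -0.64). Of 18 immediate early genes 2 were higher (Egr1 0.80 and Jund 0.65) and 2 lower (Fos -0.61 and Fosb -0.72). Of 5 measured macrophage markers 4 were higher in NanoCa cycling cells (median 1.43), and of 6 measured fibroblast markers 3 were (median 0.45), at the summed levels given above. Their part in these ratios was not tested. Among the 10 lowest genes were 2 mitochondrial transcripts, mt-Atp6 (-1.06) and mt-Nd3 (-0.86), and Ly6a, the surface antigen Sca-1 (-1.17).

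Few genes had a different ratio in cycling and other base cells. Of 10143 genes 44 (0.434%) were at least 1.5-fold higher in the difference and 44 (0.434%) lower, and the difference has no test with 1 library per group. The proteoglycan gene Dcn stood at 60.2 against 36.0 CPM in cycling cells but 105 against 113 in other base cells, a difference of 0.85 in log2. Clu, clusterin, stood at 72.5 against 39.4 CPM in cycling cells and 79.6 against 64.7 in other base cells (0.58). The lowest differences above 50 CPM were those of Chac1 (-0.38), Hmmr (-0.37), Cdc20 (-0.36), Kif20a (-0.35), Cenpa (-0.34) and Bub1 (-0.32), of which all but Chac1 are mitotic genes. Cdc20 was scored. The common cut bounds the score of cycling cells from below and that of other base cells from above. The part of the cut in these differences was not tested, so nothing is read from them.

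Acta2, smooth muscle actin, shows how 1 cell can set a level. It stood at 7.17 CPM in NanoCa and 0.48 in mock cycling cells, but 186 of its 197 NanoCa UMIs (94.4%) came from 1 cell, and the level without that cell was 0.401 CPM. In the same way 113 of the 121 S100a9 UMIs (93.4%) of mock cycling cells came from 1 cell; S100a9 is a neutrophil gene.

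By the same base rule and the tumour cut, the lymph node libraries held 50 such cells of 215 base cells in NanoCa (23.3%, 17.8 to 29.5) and 136 of 798 in mock (17.0%, 14.5 to 19.8). These node cells were deeper, with median UMIs of 93348.5 and 74880.5. Their licensing genes summed to 719 CPM in NanoCa and 898 in mock and their mitotic cyclin genes to 2375 and 2483, beside 771 and 763, and 2431 and 2319, in the tumour's cycling cells. Interferon-gamma-induced genes summed to 239 CPM in NanoCa and 1865 in mock node cells above the cut, and to 399 and 779 in the tumour's cycling cells, lower in NanoCa in both tissues.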

How the data were processed

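Each tumour and lymph node library was a 10x Genomics single-cell RNA matrix of 31253 genes. As deposited, each value is a whole-number count of UMIs without normalization, made with Cell Ranger 7.1.0 per the file headers; aligner settings, genome build and annotation are not stated in any label or header used. No sample column was set aside. Barcodes were filtered and scored as the report opens. UMIs were summed over the cells of each group and library, divided by the summed total, and given with exact Poisson or conditional binomial intervals at 95%. With 1 library per group no test was made, and cells were not treated as replicates. A gene was counted past 1.5-fold with at least 100 UMIs over the 2 groups. Fold bounds used a floor of 3 counts. Depth differences were checked by thinning cells to 5000 UMIs. Doublets were kept. In an alternative, the barcodes with the highest Scrublet scores (scanpy 1.11.5) were removed, at a number preset from the barcode count. The calculations were tested on simulated data. The cycling cells, the gene lists and the named genes were chosen with earlier results of these data known. Named were a fixed set of cycle, identity and interferon genes, up to 4 genes per list with the largest ratio, and, above 50 CPM, the 10 highest and 10 lowest of each contrast and the 6 highest and 6 lowest differences; genes named beyond these were chosen after their values were seen. Python 3.11.15, numpy 2.4.6, scipy 1.17.1, pandas 2.3.3 and edgeR 4.0.16 were used, the last only for trimmed mean of M-values scaling.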

Additional observations from a re-analysis of the deposited data

How the results depend on the processing

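No paired analysis was possible because each group had 1 library. Over the alternatives, 262 values of the shares, counts and list medians stayed within 1.5 times (counts) or within a counting interval, and 60 did not. The interval was that of the share ratio, or of the list's middle gene. Of the list medians past 1.5-fold, 0 values changed sign. A change of sign was not assessed for the share, the counts or smaller medians. The log2 ratio of the shares (0.30) was -6.43e-05 where the highest 15% was taken within each library, which fixes it, and 0.021 with 6 other genes of mitosis. Genes lower in cycling cells (431) were 257 with those 6 genes and 219 with at least 400 UMIs. Higher in NanoCa within cycling cells (617) were 403 after thinning and 393 at 400 UMIs, and lower (160) were 91 after thinning, 269 at 50 UMIs and 68 at 400; in other base cells the lower count (252) was 134, 421 and 95. Higher differences (44) were 75 for the highest 20% of cells, 90 with the other 6 genes, 124 at 50 UMIs, 10 at 400 and 67 with each cell of equal weight, and lower differences (44) were 27 with the other 6 genes, 144 at 50, 4 at 400 and 71 with equal weight. Fewer or more genes tested at another minimum is part of the change in these counts.

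Medians of cycling over other base cells, in log2, were as follows. For mitotic cyclins in NanoCa (1.63) they were 1.72 for the highest 20%, 1.68 without doublets, 1.70 with trimmed mean of M-values, 1.71 with median-of-ratios and 1.75 with equal weight, and in mock (1.76) 2.03 after thinning and 1.91 with equal weight. For spindle genes in NanoCa (2.04) they were 1.91 for the highest 10%, 2.17 for the highest 20%, 2.17 with the other 6 genes and 1.93 at 5 Rhox5 UMIs, and in mock (2.21) 2.11, 2.35 and 2.43 for the same first settings, 2.34 after thinning and 2.35 with equal weight. Licensing genes in NanoCa (-0.15) had 0.10 after thinning, and in mock (0.04) -0.15 for the highest 10%, 0.18 after thinning and 0.19 with equal weight, so the sign of this median is not stable. DNA synthesis genes in NanoCa (0.02) had -0.16 for the highest 10%, 0.13 for the highest 20%, -0.13 at 5 Rhox5 UMIs, 0.26 after thinning and 0.15 with equal weight, and in mock (0.11) -0.10 for the highest 10% and 0.32 after thinning. For NanoCa over mock in cycling cells, interferon-gamma-induced genes (-0.98) had -1.24 after thinning. Other interferon-stimulated genes (-0.40) had -0.34 for the highest 10%, -0.31 for the highest 20%, -0.34 within libraries, -0.30 with the other 6 genes, -0.30 at 5 Rhox5 UMIs, -0.33 without doublets, -0.51 after thinning and -0.48 with equal weight. Mitotic cyclins (0.05) had 0.15 within libraries and 0.15 with the other 6 genes, and spindle genes (-0.11) -0.025 with the other 6 genes. The cause was not tested. For 66 chosen contrasts of named genes, 713 values stayed within the gene's counting interval, 202 did not, and 0 values past 1.5-fold changed sign. Of the 691 values of those contrasts counted past 1.5-fold, 672 stayed past it in the same direction. Leaving single genes out of the score and dropping the Acta2-rich cell were chosen after seeing the data.

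The main limits are 1 library per group, a label conflict over treatment, and depth: genes under 100 UMIs over the 2 groups were not counted.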
